A study of Rattus norvegicus with 28 samples.

Results

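The 6 genes followed here, which heart muscle cells are known to raise under load or injury, are Nppa, Nppb, Acta1, Rcan1, Gdf15 and Timp1. They were found by symbol among the 11383 genes of the RNA table, and all 6 were present and passed the filter on low values. The RNA came from heart muscle cells of adult rats aged 6 to 8 months, held in culture for 48 hours. The shDesmin group was 3 libraries from cells given an adenovirus that encodes a short hairpin RNA against desmin, and the null group was 3 libraries from cells given an adenovirus labelled null. All 6 libraries share the culture and an adenovirus. The RNA labels call the control virus null, while the general treatment text names a scrambled hairpin, so whether the control cells carried any hairpin is unclear. If they did not, effects of desmin loss and of a hairpin as such cannot be told apart. Desmin forms the intermediate filaments of muscle, which tie the contractile lattice to the cell surface and the nucleus. No label says whether the 3 libraries of a group were separate cultures or animals, so p-values measure the spread between these libraries only.

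The libraries held 9168307 to 9817421 reads over the listed genes in the shDesmin group and 8724543 to 10908458 in the null group. The targeted transcript, Des, stood at 9.10, 9.13 and 9.32 log2 CPM in shDesmin libraries, against 12.57, 12.54 and 12.60 in null libraries, a 10.5-fold lower level. Of 10 defining markers of heart muscle cells 9 were listed, and none was below 6.22 log2 CPM in any library. All 9 were higher in shDesmin RNA, against 27.5% of all tested genes (4 of the 9 under quantile normalization, against 28.2%). They summed to 56644 to 66726 CPM in shDesmin libraries, against 19912 to 26325 CPM in null libraries. Reads from mitochondrial genes took 35.0 to 39.1% of reads in shDesmin libraries and 24.7 to 34.5% in null libraries. Levels are given as log2 CPM, where CPM is a count normalised to library size after the scaling between libraries that the deposited values carry. The part of heart muscle markers and of mitochondrial reads in the results below was not tested.

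Nppa and Nppb encode the atrial and B-type natriuretic peptides, hormones that stretched heart muscle releases and that lower blood volume and pressure through receptors that make cyclic GMP. In adult rodent ventricle both genes, together with Acta1, the skeletal muscle form of actin, are low at rest and come back in hypertrophy, as part of what is called the fetal gene programme. Rcan1 encodes a regulator that binds calcineurin, the calcium-activated phosphatase of hypertrophic signalling, and its short form is itself switched on by calcineurin through NFAT factors. Gdf15 encodes a secreted stress hormone of the TGF-beta family that is induced through the integrated stress response and other stress pathways. Timp1 encodes a secreted inhibitor of matrix metalloproteinases, made by fibroblasts and other cells and raised in cardiac fibrosis.

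The genes did not move together. With the deposited scaling, Acta1, Rcan1 and Nppa were higher in shDesmin RNA, Gdf15 was much lower, and Nppb and Timp1 passed no threshold. Of the 6, 3 were called higher, where 27.5% of all 11033 tested genes were, and 1 was called lower, where 31.4% of all tested genes were (limma, adjusted p under 0.05 over all tested genes). Calls in either direction covered 58.9% of tested genes, so 4 of 6 called is close to the background. The 3 shDesmin values did not overlap the 3 null values for those same 4 genes, and this held for 64.9% of tested genes. In the authors' deposited table the signed folds of these genes were 1.95 for Acta1, 1.62 for Rcan1, 1.43 for Nppa, 1.07 for Timp1, -1.14 for Nppb and -4.93 for Gdf15.

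**Figure D1:**
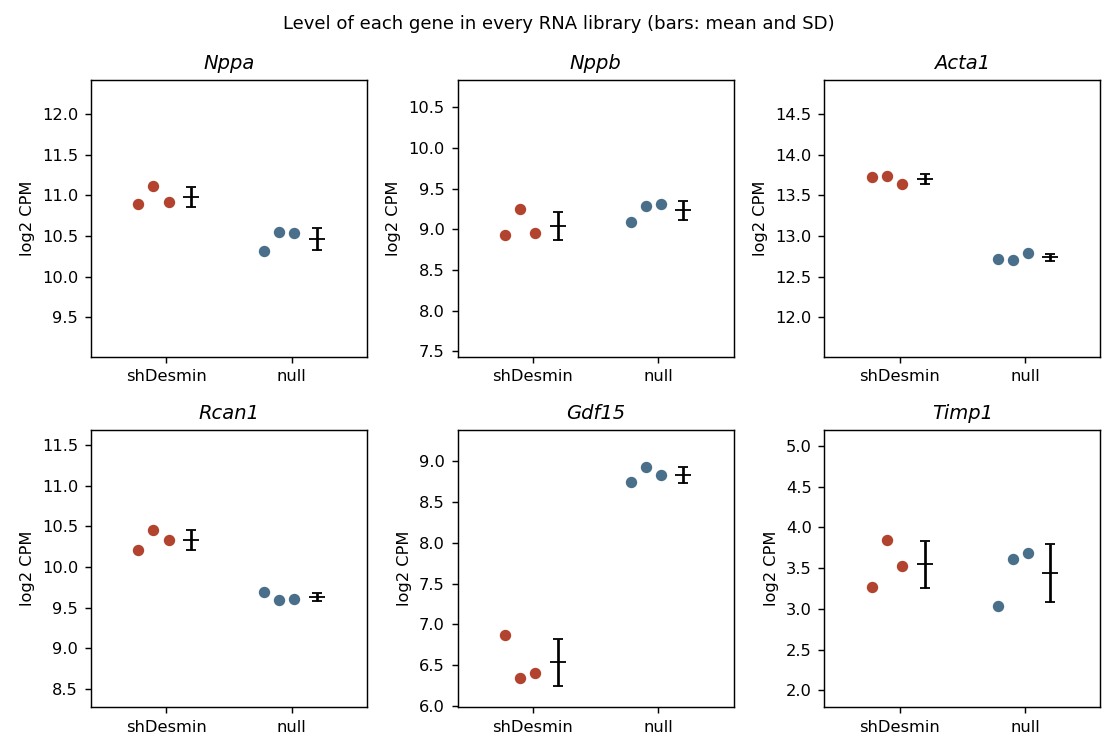
Level in log2 CPM of each gene in the 3 shDesmin and the 3 null RNA libraries, with mean and SD beside the points; every panel spans the same range. Acta1 and Rcan1 are higher in all shDesmin libraries, Gdf15 is lower in all of them, and the groups overlap for Nppb and Timp1.

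Apart from Gdf15, these calls rest on how libraries are scaled against each other. Scaled by library totals, the log2 fold of the median gene moves by -0.71, and 69.7% of tested genes are called, 7.27% higher and 62.5% lower. On that scale Acta1 stayed higher (0.25, adjusted p = 0.030), Gdf15 stayed lower (-3.01) and Rcan1 was not called (-0.01, adjusted p = 0.92). Nppa (-0.20, adjusted p = 0.044), Nppb (-0.90, adjusted p = 1.3e-05) and Timp1 (-0.61, adjusted p = 0.015) were called lower, all by limma. Leaving mitochondrial genes out of the totals gave a shift of -0.54, with 67.1% of tested genes called, 10.4% higher and 56.7% lower. Centring each library on its median moved folds up by 0.18 and called 60.5% of tested genes, 36% higher and 24.5% lower, with the same 4 calls among the 6 genes. Quantile normalization, which gives the same rank the same value in every library, called 57.1% of tested genes, 28.2% higher and 28.9% lower. Under it none of the 6 was higher, and Nppa (-0.33), Nppb (-0.92), Acta1 (-0.43), Rcan1 (-0.23) and Gdf15 (-2.80) were lower. Set against the median of all tested genes (-0.04), a quantity that no common shift changes, the log2 folds were 1.00 for Acta1, 0.74 for Rcan1, 0.55 for Nppa, 0.15 for Timp1, -0.15 for Nppb and -2.26 for Gdf15. From here on, higher and lower refer to the deposited scaling unless another is named.

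**Figure D2:**
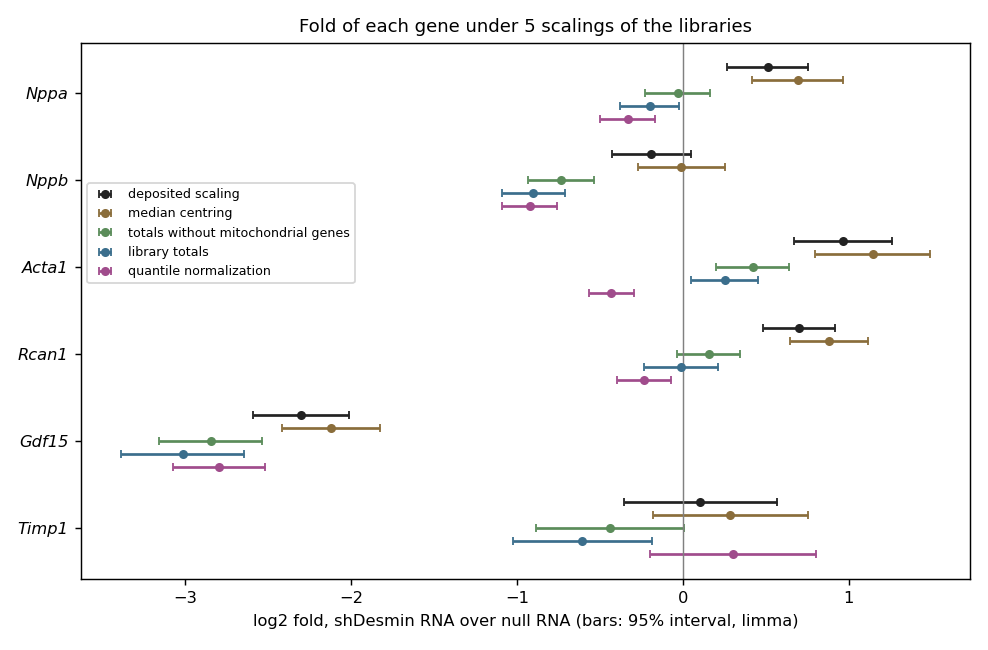
Log2 fold of each gene, shDesmin RNA over null RNA, with its 95% interval from limma, under 5 ways of scaling the libraries. Gdf15 lies between -3.01 and -2.12 under all 5, whereas Nppa and Rcan1 lie on both sides of 0 and Acta1 is below 0 under quantile normalization.

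Nppa and Nppb are neighbours, 10.8 kb apart on rn6 chromosome 5 with no other listed gene between them, yet they parted. Nppa (ENSRNOG00000008176, rn6 chromosome 5, 164808323 to 164809705) stood at 10.89, 11.12 and 10.92 log2 CPM in shDesmin libraries, against 10.31, 10.54 and 10.54 in null libraries. Every shDesmin value lay above every null value, by a narrow margin. The level was 1.43-fold higher (log2 fold 0.51, SE 0.11, limma adjusted p = 0.0022). Nppb (ENSRNOG00000008141, rn6 chromosome 5, 164796185 to 164797531) stood at 8.93, 9.24 and 8.95 log2 CPM in shDesmin libraries, against 9.09, 9.29 and 9.31 in null libraries. Here the groups overlapped, because shDesmin library 2 lay above null library 1. The log2 fold of Nppb was -0.19, with a 95% interval from -0.43 to 0.05 (limma adjusted p = 0.16). Without shDesmin library 2 it was -0.29 (adjusted p = 0.046) and without null library 1 it was -0.26 (adjusted p = 0.041), so either library decides that call. Weighting libraries by the spread estimated for each gave -0.26 (adjusted p = 0.018).

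The ratio of both transcripts within a library is the same under each scaling by 1 factor per library, and it separated the groups. Quantile normalization is the exception among the scalings tried, since it also changes ratios. The log2 ratio of Nppb to Nppa was -1.96, -1.88 and -1.96 in shDesmin libraries, against -1.22, -1.26 and -1.22 in null libraries. The spread within either group was small, with an SD of 0.05 in shDesmin libraries and 0.02 in null libraries (n = 3 each). Relative to Nppa, Nppb was thus 1.63-fold lower in shDesmin RNA (difference -0.70, or -0.59 under quantile normalization). An exact two-sided permutation test gave p = 0.1, the smallest that 3 libraries against 3 allow.

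The promoters of this pair are shown because the genes share a locus and parted. Both are the 250 bases before the RefSeq start on build GRCr8, plus strand, Nppa at chr5:163711934-163712183 and Nppb at chr5:163699758-163700007. Capitals mark matches, on either strand, to the motifs searched, which were AGATAA and TGATAA for GATA factors, AAGTG for NKX2-5, CATTCC for the MCAT element, TGANTCA for AP-1, TGACGTCA for the cyclic AMP element, GGAAA for NFAT, TGATGCAA for the C/EBP-ATF element, and the CArG and MEF2 boxes by name.
Nppa: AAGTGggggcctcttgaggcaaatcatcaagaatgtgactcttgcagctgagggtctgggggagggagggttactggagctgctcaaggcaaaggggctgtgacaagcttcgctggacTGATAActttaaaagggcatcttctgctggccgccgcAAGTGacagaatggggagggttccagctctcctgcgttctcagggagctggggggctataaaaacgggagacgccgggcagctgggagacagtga
Nppb: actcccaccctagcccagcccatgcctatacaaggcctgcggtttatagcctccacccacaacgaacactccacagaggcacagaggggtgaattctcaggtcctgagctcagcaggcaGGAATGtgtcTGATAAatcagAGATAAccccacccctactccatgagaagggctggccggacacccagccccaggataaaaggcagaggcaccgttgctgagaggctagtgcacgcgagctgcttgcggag
Nppa held TGATAA once, 132 bases before the start, and AAGTG at 95 and at 250 bases. Nppb held AGATAA at 110 bases, TGATAA at 121 bases and CATTCC, on the other strand, at 131 bases. Of 33360 promoter windows of this length, 10.3% held AGATAA, 7.97% TGATAA, 40.6% AAGTG and 12.1% CATTCC. No matches overlapped, in these windows or in those of the other genes. A match describes letters and does not show a bound site.

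Around the peptides, several genes that process, clear and read them moved more than the peptides did. Of 16 genes of the natriuretic peptide system, both peptides included, 11 were listed and tested. Among these, 6 were higher and 2 lower, against 27.5% and 31.4% of all tested genes. Their median log2 fold was 0.51, against -0.04 for all tested genes. Under library totals 3 were higher and 6 lower, against 7.27% and 62.5% of all tested genes. Under the deposited scaling 1 was lower without shDesmin library 1, null library 2 or null library 3. Corin, the protease that cleaves pro-ANP, stood at 4.56, 4.21 and 4.37 log2 CPM in shDesmin libraries, against 1.36, 1.80 and 1.52 in null libraries. That is 7.07-fold higher (limma adjusted p = 5.8e-07), with no overlap, and it stayed higher under library totals (2.11) and quantile normalization (2.96). Npr3, the clearance receptor that removes natriuretic peptides, stood at 2.57, 2.23 and 1.89 log2 CPM in shDesmin libraries, against -0.06, 0.06 and -0.28 in null libraries. It was 5.01-fold higher (adjusted p = 7.2e-05), resting on 28 to 47 reads in shDesmin libraries and 10 to 12 reads in null libraries. Pde3a, which degrades cyclic AMP and is inhibited by cyclic GMP, was 4.64-fold higher (adjusted p = 2.9e-05), and Pcsk6, the protease that activates corin, 1.78-fold higher (adjusted p = 0.00028). Npr1, the receptor of both peptides, was 2.05-fold higher, but its groups overlapped, at 3.51, 2.82 and 3.62 log2 CPM in shDesmin libraries, against 1.93, 2.86 and 2.07 in null libraries. Npr2, the receptor of the C-type peptide, and Ide, a protease that degrades peptides, were the 2 genes lower. Furin and Pde2a were not called. These last 4 genes, like other exceptions named below, were named after their values were seen.

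Acta1 rose less than its cardiac sister gene. Acta1 (ENSRNOG00000017786, rn6 chromosome 19, 56674074 to 56677084) stood at 13.72, 13.74 and 13.64 log2 CPM in shDesmin libraries, against 12.71, 12.71 and 12.79 in null libraries. The groups were far apart beside an SD of 0.06 in shDesmin libraries and 0.05 in null libraries (n = 3 each). Its level was 1.95-fold higher (log2 fold 0.96, SE 0.13, limma adjusted p = 0.0001). In reads, Acta1 took 1.13, 1.00 and 0.997% of each shDesmin library, against 0.951, 0.849 and 0.826% of each null library, so the shares did not overlap either.

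Actc1, the cardiac form that fills the thin filament of the adult heart, stood at 14.20, 14.44 and 14.28 log2 CPM in shDesmin libraries, against 12.19, 12.17 and 12.28 in null libraries. It was 4.26-fold higher (adjusted p = 6.1e-07) and stayed higher under library totals (1.38) and quantile normalization (0.67). The log2 ratio of Acta1 to Actc1 was -0.47, -0.70 and -0.64 in shDesmin libraries, against 0.52, 0.54 and 0.51 in null libraries. Relative to Actc1, Acta1 was therefore 2.18-fold lower in shDesmin RNA, with no overlap (exact permutation p = 0.1, the smallest possible). Against Actb, the cytoplasmic beta-actin gene, it was 1.64-fold higher, with ratios of 3.51, 3.71 and 3.30 in shDesmin libraries and 2.73, 2.65 and 3.00 in null libraries. Under quantile normalization that difference was 0.22 on the log2 scale. Actb itself was not called (log2 fold 0.25, adjusted p = 0.078).

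Of the 6 actin genes 4 were higher and 1 lower, against 27.5% and 31.4% of all tested genes. The counts were 3 and 2 under library totals, and 3 and 3 under quantile normalization. Acta2, the smooth muscle actin gene, was 2.32-fold higher (adjusted p = 1.3e-05), while Actg1, cytoplasmic gamma-actin, was 3.30-fold lower (adjusted p = 0.0012). The value of Actg1 rests on only 8 to 25 reads in shDesmin libraries and 81 to 100 reads in null libraries. Actg2 was 4.75-fold higher (adjusted p = 0.013), with overlapping groups. Actin genes are near-identical in their coding parts and have processed copies, and how shared reads were assigned is not given in the sources used here, so values of single actin genes are uncertain.

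The promoter of Acta1 is shown as that of the strongest riser of the 6 (GRCr8, minus strand, chr19:68784195-68784444, the 250 bases before the start, capitals as above).
Acta1: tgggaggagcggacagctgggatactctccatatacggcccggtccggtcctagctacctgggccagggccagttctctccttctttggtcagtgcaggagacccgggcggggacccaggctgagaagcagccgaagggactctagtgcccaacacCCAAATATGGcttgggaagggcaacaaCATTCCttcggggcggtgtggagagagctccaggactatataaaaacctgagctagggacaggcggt
It held a CArG box, the site that serum response factor is known to bind in muscle actin genes, 94 bases before the start, and CATTCC 67 bases before it. A CArG box was found in 1.5% of all windows.

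The wider hypertrophy and fetal programme followed only part of its usual pattern of fetal genes up and adult genes down, since genes of both kinds rose. Of 23 genes, Nppa, Nppb and Acta1 among them, 22 were tested, with 14 higher and 4 lower, against 27.5% and 31.4% of all tested genes. The median log2 fold was 0.90. The counts were 9 higher and 6 lower under library totals, and 11 and 8 under quantile normalization. Genes that the programme is known to lower were among the largest rises. Pln, the inhibitor of the calcium pump, stood at 10.66, 11.09 and 10.91 log2 CPM in shDesmin libraries, against 7.52, 7.65 and 7.85 in null libraries, 9.28-fold higher (adjusted p = 1.9e-08). Atp2a2, the pump itself, was 4.88-fold higher (adjusted p = 1.2e-07), and Myh6, the adult rodent myosin heavy chain, 4.13-fold higher (adjusted p = 1.7e-07). Myh7, the fetal and slow myosin heavy chain, was 3.48-fold higher (adjusted p = 3.3e-07). Ankrd1 was 3.74-fold higher (adjusted p = 6.4e-07) and Fhl2 2.36-fold higher (adjusted p = 2.5e-06). The 4 lower genes were Uchl1, a ubiquitin hydrolase, Ankrd23, a stretch-responsive ankyrin repeat protein of the sarcomere, and the matricellular genes listed as Ctgf and Cyr61. Of the 14 higher genes of this list Nppa had the smallest fold, and Nppb was among the 4 genes not called.

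Rcan1 was higher under the deposited scaling only by a moderate factor. Rcan1 (ENSRNOG00000001979, rn6 chromosome 11, 32539683 to 32550539) stood at 10.21, 10.45 and 10.33 log2 CPM in shDesmin libraries, against 9.69, 9.59 and 9.61 in null libraries. All shDesmin values lay above all null values. It was 1.62-fold higher (log2 fold 0.70, SE 0.10, limma adjusted p = 0.00011). As a share of reads, however, it held 0.0984, 0.103 and 0.101% of each shDesmin library, against 0.117, 0.0980 and 0.0912% of each null library, and these shares overlapped.

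Its paralog Rcan2 was at 8.46, 8.65 and 8.58 log2 CPM in shDesmin libraries, against 6.71, 6.69 and 6.78 in null libraries, 3.58-fold higher (adjusted p = 1.1e-07). The log2 ratio of Rcan1 to Rcan2 was 1.75, 1.80 and 1.75 in shDesmin libraries, against 2.99, 2.91 and 2.83 in null libraries. Rcan1 was thus 2.20-fold lower relative to Rcan2 (exact permutation p = 0.1, the smallest possible). Against Ppp3ca, a catalytic subunit of calcineurin, Rcan1 was higher by 0.58 on the log2 scale, with ratios of 5.39, 5.98 and 5.63 in shDesmin libraries and 4.80, 5.25 and 5.19 in null libraries. Under quantile normalization that difference turned to -0.47, so its direction depends on the scaling. Ppp3ca was not called (log2 fold 0.12, adjusted p = 0.55).

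Of 16 calcineurin and NFAT genes, Rcan1 included, 15 were tested, with 9 higher and 4 lower, against 27.5% and 31.4% of all tested genes. Their median log2 fold was 0.67. Under library totals only Rcan2 and Myoz2 were higher and 5 were lower, against 7.27% and 62.5% of all tested genes. Myoz2, a Z-disc protein that binds calcineurin, was 3.52-fold higher (adjusted p = 4.2e-07), and Ppp3r1, the regulatory subunit, 1.71-fold higher (adjusted p = 5.1e-05). Nfat5, the osmotic stress factor of the NFAT family, was 2.07-fold lower (adjusted p = 0.00015), as were Nfatc2, Cabin1, a calcineurin inhibitor, and Cib1, a calcium-binding protein. The table gives 1 value for Rcan1 as a gene, and its long and short forms cannot be told apart in it.

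The window before the RefSeq start of Rcan1 is shown because the gene is known to respond to NFAT (GRCr8, minus strand, chr11:45118237-45118486, capitals as above).
Rcan1: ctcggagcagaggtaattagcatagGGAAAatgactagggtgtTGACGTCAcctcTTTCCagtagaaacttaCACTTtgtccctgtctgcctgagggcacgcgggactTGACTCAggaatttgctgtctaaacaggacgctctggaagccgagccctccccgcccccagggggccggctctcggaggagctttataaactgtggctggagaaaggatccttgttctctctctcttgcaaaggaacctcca
It held GGAAA at 225 bases and, on the other strand, at 195 bases before the start, TGACGTCA at 207 bases, TGANTCA at 142 bases and AAGTG, on the other strand, at 178 bases. Of all windows 56.9% held GGAAA, 1.59% TGACGTCA and 6.35% TGANTCA.

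Gdf15 had the largest change of the 6, and it was lower in every setting tried. Gdf15 (ENSRNOG00000019661, rn6 chromosome 16, 20555395 to 20557978) stood at 6.87, 6.34 and 6.40 log2 CPM in shDesmin libraries, against 8.74, 8.93 and 8.84 in null libraries. The groups were more than a log2 unit apart. Behind these values were 935, 542 and 648 reads in shDesmin libraries and 5579, 5407 and 5819 reads in null libraries. The level was 4.93-fold lower (log2 fold -2.30, SE 0.13, limma adjusted p = 2e-07), and 199 of the 11033 tested genes fell further. Its log2 fold lay between -3.01 and -2.12 under the 5 scalings, and it was called lower under each.

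Genes known to act on Gdf15, or to rise with it, were split. Of 17 such genes, Gdf15 itself not counted, 16 were tested, with 5 higher and 8 lower, against 27.5% and 31.4% of all tested genes. The median log2 fold was -0.49. Under library totals 2 were higher and 11 lower, against 7.27% and 62.5% of all tested genes, and under quantile normalization 4 and 8. Atf4, the main factor of the integrated stress response, stood at 10.87, 10.98 and 10.80 log2 CPM in shDesmin libraries, against 9.39, 9.55 and 9.64 in null libraries, 2.56-fold higher (adjusted p = 1.4e-06). Its known targets Trib3, a pseudokinase, and Asns, asparagine synthetase, were 3.48-fold and 1.86-fold lower (adjusted p = 7.2e-06 and 8.6e-06). Cdkn1a, the cell cycle inhibitor p21, stood at 8.13, 7.85 and 7.90 log2 CPM in shDesmin libraries, against 9.28, 9.21 and 9.21 in null libraries, 2.41-fold lower (adjusted p = 1.3e-06). Besides Atf4, the higher transcripts included Fgf21, which encodes another stress hormone, Eif2ak4, an amino acid sensing kinase, and Nfe2l2, an antioxidant factor. Fgf21 was 5.64-fold higher (limma adjusted p = 0.0002), resting on 22 to 26 reads in shDesmin libraries and 5 to 9 reads in null libraries. Atf3 (log2 fold 0.01), Chac1 (-0.24) and Eif2ak3 (-0.48) were not called. ATF4 protein was not measured.

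Within libraries, the log2 ratio of Gdf15 to Atf4 was -4.00, -4.64 and -4.41 in shDesmin libraries, against -0.65, -0.62 and -0.81 in null libraries, a 12.6-fold difference. The ratio of Gdf15 to Cdkn1a was -1.26, -1.52 and -1.51 in shDesmin libraries, against -0.54, -0.27 and -0.37 in null libraries, so Gdf15 was 2.05-fold lower relative to Cdkn1a too. Neither ratio overlapped between groups (exact permutation p = 0.1 each, the smallest possible).

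RefSeq gives 2 starts for Gdf15. The window before the downstream start is shown, as that of the gene with the largest change (GRCr8, plus strand, chr16:18839015-18839264, capitals as above).
Gdf15: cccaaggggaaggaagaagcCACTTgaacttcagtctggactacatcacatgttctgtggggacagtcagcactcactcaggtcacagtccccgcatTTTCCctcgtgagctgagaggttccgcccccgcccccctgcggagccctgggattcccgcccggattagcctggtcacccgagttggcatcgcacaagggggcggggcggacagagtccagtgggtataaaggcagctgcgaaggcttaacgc
It held AAGTG, on the other strand, at 230 bases and GGAAA, on the other strand, at 153 bases before the start. The window before the upstream start held none of the motifs searched, and neither window held TGATGCAA, which 0.692% of all windows held.

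Timp1 had the fewest reads of the 6, and under the deposited scaling it did not separate the groups. Timp1 (ENSRNOG00000010208, rn6 chromosome X, 1364786 to 1369384) stood at 3.27, 3.85 and 3.53 log2 CPM in shDesmin libraries, against 3.03, 3.61 and 3.68 in null libraries. The values overlapped, and the lowest library of each group was replicate 1. They rest on 77, 96 and 88 reads in shDesmin libraries and 106, 135 and 163 reads in null libraries. The log2 fold was 0.11, with a 95% interval from -0.36 to 0.57 (limma adjusted p = 0.68). As shares of all reads, which follow library totals, the libraries did not overlap, at 0.000801, 0.00105 and 0.000896% in shDesmin libraries, against 0.00115, 0.00155 and 0.00149% in null libraries.

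Of 20 other genes of metalloproteinases and their partners 13 were tested, with 8 higher and 2 lower, against 27.5% and 31.4% of all tested genes. Their median log2 fold was 0.66. Under library totals only Mmp2 was higher and 3 were lower, against 7.27% and 62.5% of all tested genes. Quantile normalization gave 8 and 3. Counted with Timp1, the list had 5 higher genes without shDesmin library 3. Mmp2, a gelatinase, stood at 3.68, 4.45 and 3.82 log2 CPM in shDesmin libraries, against 2.33, 2.47 and 1.35 in null libraries, 3.81-fold higher (adjusted p = 0.00022). Timp3, the matrix-bound inhibitor, was 2.18-fold higher (adjusted p = 0.00061), Adam9 2.00-fold higher (adjusted p = 0.0010), and Timp2 rose by a log2 fold of 0.46 (adjusted p = 0.0045). Mmp15, a membrane-bound metalloproteinase, was 2.07-fold lower (adjusted p = 0.00051), and Adam17, the sheddase of TNF, was lower with a log2 fold of -0.59 (adjusted p = 0.0014). The log2 ratio of Timp1 to Mmp2 was -0.40, -0.60 and -0.29 in shDesmin libraries, against 0.70, 1.14 and 2.33 in null libraries, a 3.54-fold lower ratio without overlap. Ratios of Timp1 to Timp2 and to Timp3 overlapped between groups (exact permutation p = 0.2 each).

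Timp1, Mmp2 and Acta2 are also expressed by other cells of the heart, and markers of such cells moved with the groups. Beside the counts that follow, 27.5% of all tested genes were higher and 31.4% lower (7.27% and 62.5% under library totals). Of 10 fibroblast markers 4 were tested, 3 of them higher, and the listed ones summed to 16.6 to 26.0 CPM in shDesmin libraries, against 5.03 to 11.6 CPM in null libraries. The highest were Dcn, Col3a1 and Col1a1, at most 3.95 log2 CPM in any library. Of 10 smooth muscle and pericyte markers 8 were tested, with 6 higher and 1 lower, and they summed to 539 to 903 CPM in shDesmin libraries, against 279 to 438 CPM in null libraries. The most abundant were Acta2, Tagln and Abcc9. The lower one was Cspg4, 5.93-fold lower (limma adjusted p = 5.6e-06), the smallest adjusted p of the 8. It stayed lower under library totals (-3.28) and quantile normalization (-2.48). Only 2 smooth muscle and pericyte markers were higher without shDesmin library 3, without null library 3, or with a variance model that has no trend. In shDesmin library 3 the markers Myh11 and Cnn1 stood at 7.19 and 3.99 log2 CPM, against 5.04 to 5.86 and 1.46 to 1.78 in the other two shDesmin libraries. Of 10 endothelial markers 9 were tested, with 5 higher and 1 lower, and they summed to 264 to 391 CPM in shDesmin libraries, against 138 to 231 CPM in null libraries. The most abundant were Tie1, Cdh5 and Egfl7, and the lower one was Kdr (log2 fold -0.55, limma adjusted p = 0.045). Without shDesmin library 3 or without null library 3 the count higher was 3, and the 1 lower call was lost on leaving out any library but shDesmin library 3. Of 10 macrophage markers 3 were listed and 2 tested, summing to 3.95 to 5.18 CPM in shDesmin libraries, against 17.1 to 17.9 CPM in null libraries. Csf1r stood at 0.75, 0.90 and 0.58 log2 CPM in shDesmin libraries, against 3.94, 3.91 and 3.88 in null libraries, and Cd68 was not called. No listed marker of these lists was at 0 in every library. Under library totals 1 fibroblast, 1 smooth muscle and 1 endothelial marker were higher and 1 of each was lower. In bulk RNA, fewer cells of a type and less RNA per cell cannot be told apart, and the part of these cells in the values of Timp1, Mmp2 and Acta2 was not tested.

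Cytokine genes known to act on Timp1 were mixed. Of 20 genes of gp130 signalling and AP-1, 18 were tested, with a median log2 fold of 0.18. Among these, 4 (22.2%) were higher and 3 (16.7%) lower, both below the 27.5% and 31.4% of all tested genes. Under library totals none was higher and 9 were lower, and under quantile normalization 7 and 4. Il6st, which encodes gp130, was 2.43-fold higher (adjusted p = 0.00037), Jak1 1.62-fold higher (adjusted p = 0.0036) and Socs3, the feedback inhibitor, 1.68-fold higher (adjusted p = 0.0064). Jund, an AP-1 subunit, was 2.00-fold lower (adjusted p = 7.2e-06) and Runx1, a transcription factor, 3.16-fold lower (adjusted p = 3e-05).

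Of 22 transcription factors and regulators of hypertrophy genes 21 were tested. Of these 3 (14.3%) were higher, against 27.5% of all tested genes, and 7 (33.3%) were lower, against 31.4%, with a median log2 fold of -0.25 (none higher and 13 lower under library totals, 7 and 6 under quantile normalization, 8 and 6 with median centring). Without null library 1, 6 were higher and 6 lower. Gata4, a zinc finger factor known to act on Nppa and Nppb, stood at 4.85, 4.44 and 4.71 log2 CPM in shDesmin libraries, against 6.44, 6.06 and 5.94 in null libraries, 2.79-fold lower (adjusted p = 9.3e-06). Nkx2-5, its homeodomain partner on the Nppa promoter, stood at 5.40, 5.55 and 5.56 log2 CPM in shDesmin libraries, against 6.72, 6.95 and 6.89 in null libraries, 2.56-fold lower (adjusted p = 1.2e-06). Gata6 was 1.80-fold lower (adjusted p = 0.0040), and Hdac5, a deacetylase that restrains MEF2, 1.71-fold lower (adjusted p = 8.7e-05). Srf, the factor of CArG boxes, was 1.81-fold higher (adjusted p = 1.0e-05), and 0.15 higher on the log2 scale under library totals, where it was not called. Rest, the repressor of Nppa and Nppb, and Camk2d, a calcium-dependent kinase, were the other 2 genes higher. The remaining genes lower were Hand2 (log2 fold -1.12, limma adjusted p = 0.014), Myocd (-0.70, adjusted p = 0.016) and Mkl1 (-1.27, adjusted p = 0.019). Mkl1 rests on 5 to 22 reads in shDesmin libraries and 44 to 50 reads in null libraries. Nppa was higher under the deposited scaling while Gata4 and Nkx2-5 were lower, and no factor's protein or binding was measured.

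**Figure D3:**
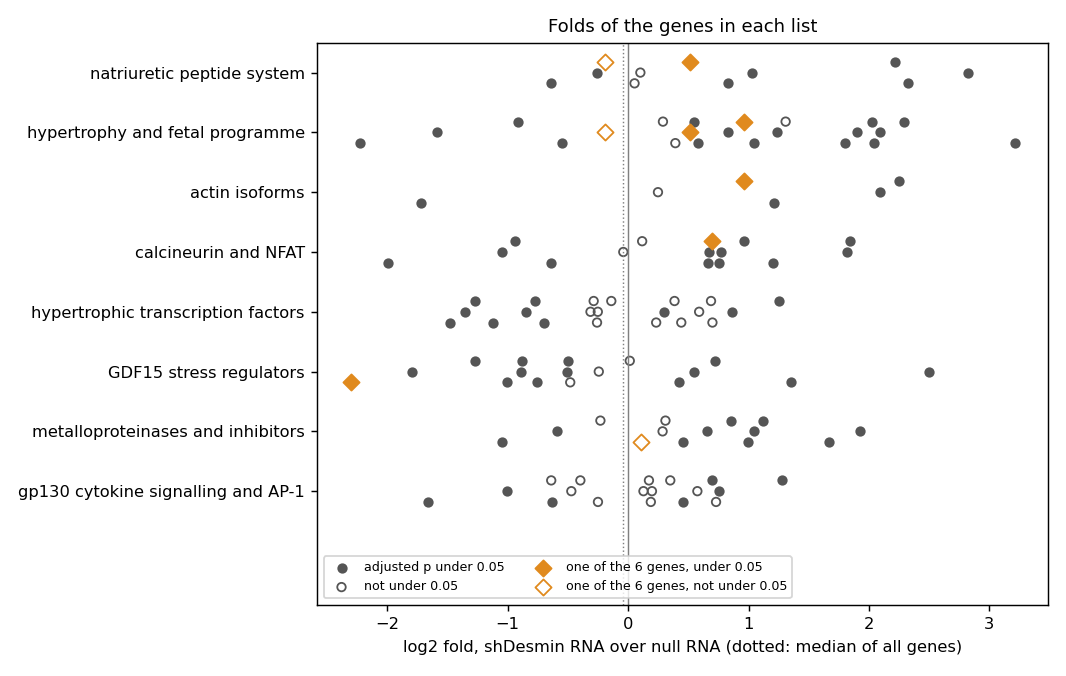
Log2 fold, shDesmin RNA over null RNA, of each tested gene of 8 lists under the deposited scaling; filled symbols passed an adjusted p of 0.05 in limma and diamonds are the 6 genes followed here. Gdf15 is the lowest gene of its list at -2.30, and Nppa, at 0.51, lies left of Corin, Npr3 and Pde3a.

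Of the 12 within-library ratios compared under the deposited scaling, 9 did not overlap between groups. Single values did not overlap for 64.9% of tested genes, and no such share was worked out for ratios of other gene pairs. The count of 9 is therefore not read as a trait of these pairs. Each of these 9 ratios had an exact two-sided permutation p of 0.1, or 0.13 after Benjamini-Hochberg adjustment over the 12. With 3 libraries against 3 this permutation test cannot go below 0.1. Besides those above, Nppb was 5.71-fold lower against Npr3, while Nppa against Npr1 overlapped (7.38, 8.30 and 7.30 in shDesmin libraries, 8.39, 7.68 and 8.46 in null libraries).

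**Figure D4:**
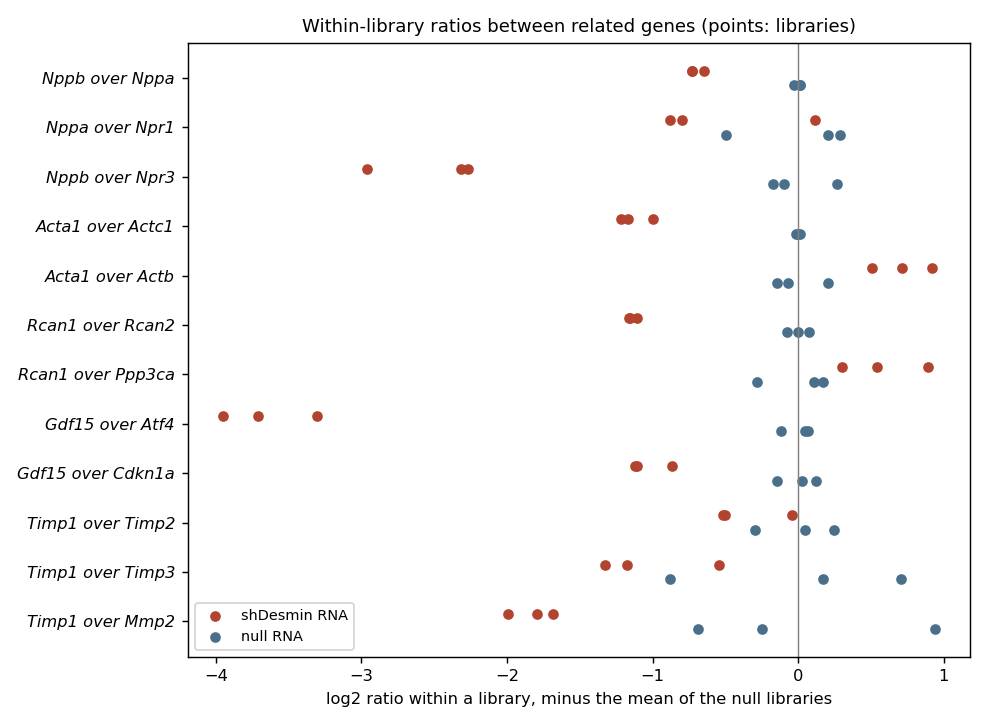
Log2 ratio between related genes within each library, set against the mean of the null libraries, for 3 shDesmin (upper row of each pair) and 3 null libraries (lower row). The ratios of Nppb to Nppa, Acta1 to Actc1, Rcan1 to Rcan2 and Gdf15 to Atf4 lie left of 0 in all shDesmin libraries.

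Within 100 kb of the 6 genes on rn6 lay 28 other listed genes, of which 26 were tested. Of these, 9 (34.6%) were higher and 10 (38.5%) lower, near the 27.5% and 31.4% of all tested genes. None of them overlaps a followed gene. Next to Nppa, Clcn6, a chloride transporter gene 2.11 kb away, was lower (log2 fold -0.71, adjusted p = 0.0012), and so were Agtrap (-1.45, adjusted p = 7.3e-05) and Plod1 (-0.57, adjusted p = 0.0089). Mfn2, a mitochondrial fusion gene, was higher (1.49, adjusted p = 0.00091), and RGD1305350 was not called. Around Acta1, Ccsap (2.42), Rab4a (0.72) and Abcb10 (0.45) were higher, and Nup133, a nuclear pore gene 4.90 kb away, was lower (-0.81, adjusted p = 0.0017). Ccsap rests on 31 to 36 reads in shDesmin libraries and 7 to 16 reads in null libraries. Beside Rcan1, Kcne1, a potassium channel subunit gene, was higher (2.00, adjusted p = 0.00071), Smim11 was not called (-0.03) and Kcne2 was not tested. Kcne1 rests on 15 to 23 reads in shDesmin libraries and 6 to 8 reads in null libraries. Around Gdf15, 5 of 9 tested genes (55.6%) were lower, against 31.4% of all tested genes. These were Mk1 (-1.88), Ell (-1.63), Pgpep1 (-1.09), Jund (-1.0) and Kxd1 (-0.83), and Fkbp8 was higher (0.38). Lsm4, Ssbp4 and Isyna1 there were not called, and Pde4c was not tested. Around Timp1, Elk1 (1.25), Uxt (0.58) and Araf (0.52) were higher and Cfp was lower (-1.02), with LOC102555453 not called.

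**Figure D5:**
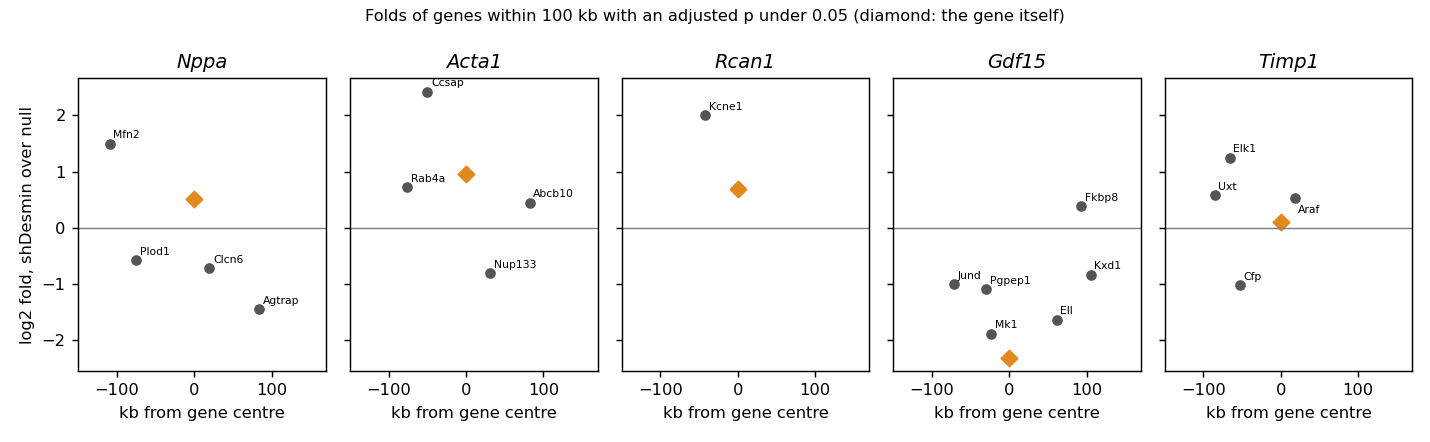
Log2 fold, shDesmin RNA over null RNA, of genes within 100 kb of Nppa, Acta1, Rcan1, Gdf15 and Timp1 (diamonds), by distance between gene centres in kb. Only neighbours with an adjusted p under 0.05 in limma are drawn, and Nppb has no panel and is not drawn. Of the genes around Gdf15, Mk1 and Ell at -1.88 and -1.63 come nearest to it, and the locus of Nppa holds genes on both sides of 0.

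None of the 6 genes lay in a lamina-associated domain, a stretch of chromatin held at the nuclear envelope, as the authors listed them on rn6 for control cells. Of 11005 tested genes on chromosomes with a domain, 436 (3.96%) had at least 50% of their length inside. The nearest domain was 249 kb from Timp1, 273 kb from Nppb, 285 kb from Nppa, 1074 kb from Gdf15, 2697 kb from Rcan1 and 5112 kb from Acta1, where the median tested gene outside domains was 891 kb away.

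The genes with the most similar pattern over the 6 libraries were found by the root-mean-square difference of log2 CPM after each gene was centred on its mean. For Gdf15 they were Tubb4b, a beta-tubulin gene (difference 0.08, log2 fold -2.37), Uchl1 (0.10, log2 fold -2.23) and Trim63, a muscle ubiquitin ligase gene (0.11, log2 fold -2.24). For Acta1 they were Hspb6, a small heat shock protein gene, Eif4a2, a translation helicase gene, and Prdx3, a mitochondrial peroxidase gene, with differences of 0.02 to 0.03. For Nppa they were Lyrm2, Ccar1 and Map1lc3b, and for Nppb Sugt1, Tex30 and Eif2b1, all at 0.02 to 0.03. For Rcan1 they were Pabpc4 (0.02), Dcaf6 (0.04) and Nipal2 (0.04), and for Timp1 Hyi (0.04), Ltbp2 (0.07) and Sars2 (0.08). No member of the 6 was among the 3 nearest of another, but 3 genes out of all tested genes with a symbol are too few to tell how alike the 6 are.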

How the data were processed

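RNA of 3 shDesmin and 3 null libraries was read as 75 bp single-end reads, per the labels. The authors deposited log2 values already scaled for each library, and among tools listed in the submitters' processing notes, without roles, are limma, edgeR, featureCounts, STAR 2.6.0c and Trimmomatic 0.32. In every library 100% of values, taken out of log2, came to whole reads plus 0.5 (within 0.001) after division by that library's own step. A constant common to all libraries was then subtracted to make the implied scale factors multiply to 1, giving log2 CPM, with factors of 0.732 to 0.834 in shDesmin and 1.17 to 1.42 in null libraries. With 0 reads, up to 3 reads are allowed, which is 0.374 to 0.447 CPM in shDesmin and 0.230 to 0.271 CPM in null libraries, counting error only. Per the file headers, the authors' deposited comparison holds a signed fold and a moderated t (scores) and p-values. The domain list, pooled over 3 ChIP replicates per the series' design text, holds rn6 positions.

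Linear models on log2 CPM were fitted with limma 3.58.1 under R 4.3.3 (two-sided, variance trend, group as the only term), and p-values were adjusted by Benjamini-Hochberg over the 11033 genes that exceeded 0 log2 CPM in 3 or more of the 6 libraries. The remaining 350 genes were not tested. Count models of the recovered reads were not fitted. The main fit used the deposited log2 values, and some alternatives used the recovered reads. Single ratios had exact permutation tests, and the fitting step was tested on simulated data. Libraries of one group always differed beyond counting noise (chi-square over degrees of freedom 5.13 to 37.4). The largest values, 37.4 and 18.1, were those of null library 1 against null libraries 3 and 2, whereas null libraries 2 and 3 gave 6.5. Null library 1 also had the lowest mitochondrial share, 24.7%. The added 0.5 shrinks the folds of low genes. Results on a few genes are not reported here. Strand use in counting is not given in the sources used here.

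The 6 genes and the 13 lists were chosen with earlier results of these data known. Named genes are the 6, up to 5 per list with the smallest adjusted p, the 3 most abundant markers of other cell types, ratio partners, listed genes within 100 kb, the 3 most similar genes with a symbol, and Des. RefSeq windows on GRCr8 matched all 6 genes (7 windows) and were trimmed to the 250 bases before the start. TGATAA was searched only after the sequences were seen. Tables were handled in Python 3.11.15 (numpy 2.4.6, pandas 2.3.3) and drawn with matplotlib 3.10.9. Alternatives covered the filter, the added reads, scaling, the variance model, library weights, a replicate block, each library left out, the authors' deposited table and the overlap with domains. Lists without the 6 genes and ratios under quantile normalization were added after the data were seen.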

Additional observations from a re-analysis of the deposited data

How the results depend on the processing

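The value of Gdf15 kept its direction and its call under every alternative tried (log2 fold from -3.01 to -2.12). Scaling decided most of the other calls. Under library totals Nppa was -0.20, Nppb -0.90, Rcan1 -0.012 and Timp1 -0.61, with 1 of the 6 genes higher and 4 lower, 802 of all tested genes higher and 6892 lower, and 27 list genes higher and 59 lower. Under totals without mitochondrial genes Nppa was -0.032, Nppb -0.73, Rcan1 0.16 and Timp1 -0.44, with 1 higher and 2 lower, 1151 and 6253 over all genes, and 33 and 53 over the lists. Under quantile normalization Nppa was -0.33, Nppb -0.92, Acta1 -0.43 and Rcan1 -0.23, with 0 higher and 5 lower. Library weights gave Nppb -0.26 and Timp1 -0.0656, with 2 of the 6 lower. The stricter filter, a mean of at least 3 log2 CPM, left 2237 genes lower over all genes, because fewer genes were tested. The causes of the other shifts were not tested.

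Leaving out each library in turn gave Nppb from -0.29 to -0.13 and Timp1 from -0.10 to 0.24, and 1 to 2 of the 6 genes lower. Nppb was called lower, and Timp1 turned negative, on leaving out shDesmin library 2 (Nppb -0.29, Timp1 -0.04) or null library 1 (Nppb -0.26, Timp1 -0.10). The 12 ratios kept their sign whichever library was left out. For the 9 ratios whose groups did not overlap, the sign could not have changed. Under quantile normalization, added after the data were seen, Rcan1 over Ppp3ca turned to -0.47 and the other 11 ratios kept their sign. Deviations from the group mean correlated at 0.13, -0.07 and -0.17 for replicates 1, 2 and 3, so equal numbers were not taken as pairs. With the replicate block 3092 genes were higher and 3491 lower, against 3036 and 3459 without it, and the calls of the 6 genes did not change. Depth limits low genes in particular, and Timp1 rests on 77 to 163 reads a library and Npr3 on 10 to 47. Actg1 rests on 8 to 100, Ccsap on 7 to 36, Kcne1 on 6 to 23 and Fgf21 on 5 to 26.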
